A study of Mus musculus with 5 samples.

Results

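From a table of 22815 gene symbols, 10 genes of cytotoxic lymphocytes were read: the granule genes Gzma, Gzmb, Prf1 and Nkg7, the natural killer receptor genes Ncr1, Klrk1, Klrb1c, Klre1 and Klra8, and the transcription factor gene Eomes. The 10 members were chosen by symbol, and all 10 were listed. RNA of peritoneal lavage cells was sequenced by Smart-seq2, a protocol for small amounts of polyadenylated RNA, and 5 libraries were analysed. The mice were 8 weeks old and fell into 3 groups: mice labelled Irf8KO that were given pristane (n = 2), wild-type C57BL/6 (WT) mice given pristane (n = 2), and WT mice given phosphate-buffered saline, PBS (n = 1). Pristane is a mineral oil component that, injected into the peritoneum of mice, draws in inflammatory cells over weeks. Irf8 encodes a transcription factor of monocyte and dendritic cell development. The labels give neither the kind of Irf8 allele, the background strain of the mice labelled Irf8KO, the time after pristane nor the number of animals behind a library, and no Irf8KO group without pristane was analysed here. P-values therefore measure the spread between libraries, which may be technical.

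Natural killer cells and cytotoxic T cells kill by releasing granules onto a target cell. Perforin, the product of Prf1, opens the target membrane, and granzymes, serine proteases such as those of Gzma and Gzmb, enter and start cell death. Natural killer cells decide whether to kill by weighing activating receptors (Ncr1, Klrk1, Klrb1c and Klra8 encode such receptors) against inhibitory ones, and Eomes is a T-box transcription factor of their maturation. Most of these genes are not particular to 1 cell type: cytotoxic T cells also make granzymes, perforin, Nkg7 and Klrk1. Ncr1 is the member that best marks natural killer cells and related innate lymphocytes in the mouse.

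Values are FPKM, fragments scaled to transcript length and library size, so levels of different genes can be compared per length. Steps between the lowest listed values gave an estimated 5086000 and 3299000 assigned fragments in the Irf8KO-labelled pristane libraries, 4084000 and 2874000 in the WT pristane libraries and 2298000 in the PBS library. Irf8 RNA had levels of 121 and 59.4 FPKM in the Irf8KO-labelled pristane libraries, against 63.3 and 48.7 FPKM in WT pristane and 32.4 FPKM in WT PBS. Irf8 RNA was thus not lower under the Irf8KO label. With the kind of allele not given, what this means for the label was not tested. These libraries are named by their label throughout. Eif2s3y, a Y-linked gene, stood at 23.2 and 25.6 FPKM in the Irf8KO-labelled pristane libraries, and at 12.9 FPKM in the first WT pristane library. In the second WT pristane library and in WT PBS its listed value was 0, so Y-linked RNA differed between the groups and between the WT replicates. Xist, an RNA of female cells, stood at 0.0148 and 0.0145 FPKM in Irf8KO-labelled pristane, 0 and 8.81 FPKM in WT pristane and 43.5 FPKM in WT PBS. By Eif2s3y and Xist, sex was not spread evenly over the groups. Its part in the differences between groups was not tested. Ptprc, which marks white blood cells, stood at 65.3 and 44.1 FPKM, 98.9 and 91.1 FPKM, and 70.3 FPKM in Irf8KO-labelled pristane, WT pristane and WT PBS.

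The DNA around the start sites of the 5 members that the results turn on most is shown here, so that a reader can look for shared elements. Each run holds 250 bases before the RefSeq start site and 50 after it, 5′ to 3′ on the gene's own strand, in build GRCm38.p6. They lie at chr13:113100932-113101231 on the minus strand (Gzma), chr14:56262285-56262584 on the minus strand (Gzmb), chr10:61297586-61297885 on the plus strand (Prf1), chr7:4337465-4337764 on the plus strand (Ncr1) and chr6:129623815-129624114 on the minus strand (Klrk1). Capitals mark 4 motifs of factor families known in lymphocytes or in interferon responses, searched on both strands: the RUNX core TGTGGT, the T-box site TCACAC, an ETS core with flanks, CAGGAAGT, and an interferon regulatory factor element, GAAA with any 2 bases before a second GAAA.
Gzma: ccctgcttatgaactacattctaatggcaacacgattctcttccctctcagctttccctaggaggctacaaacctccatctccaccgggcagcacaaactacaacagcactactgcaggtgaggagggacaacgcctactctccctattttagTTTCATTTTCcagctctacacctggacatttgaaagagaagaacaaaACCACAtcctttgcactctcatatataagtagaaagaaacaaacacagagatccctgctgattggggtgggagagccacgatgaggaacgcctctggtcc
Gzmb: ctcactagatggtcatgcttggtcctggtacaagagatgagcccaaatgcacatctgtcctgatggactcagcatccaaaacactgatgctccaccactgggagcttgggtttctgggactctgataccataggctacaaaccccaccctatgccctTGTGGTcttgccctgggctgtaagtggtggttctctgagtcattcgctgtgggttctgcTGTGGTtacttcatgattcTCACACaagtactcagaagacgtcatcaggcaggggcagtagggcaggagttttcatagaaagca
Prf1: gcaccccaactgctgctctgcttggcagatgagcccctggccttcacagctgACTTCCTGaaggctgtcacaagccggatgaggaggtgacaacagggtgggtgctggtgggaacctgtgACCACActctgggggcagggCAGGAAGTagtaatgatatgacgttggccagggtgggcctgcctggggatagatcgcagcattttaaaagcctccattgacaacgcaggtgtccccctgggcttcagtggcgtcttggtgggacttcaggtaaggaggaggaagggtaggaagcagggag
Ncr1: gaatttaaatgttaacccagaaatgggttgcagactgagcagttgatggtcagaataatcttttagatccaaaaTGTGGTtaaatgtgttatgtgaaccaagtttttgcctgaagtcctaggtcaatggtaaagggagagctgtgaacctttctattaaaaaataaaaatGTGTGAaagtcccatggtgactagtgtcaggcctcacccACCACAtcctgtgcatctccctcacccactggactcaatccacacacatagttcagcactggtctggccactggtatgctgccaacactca
Klrk1: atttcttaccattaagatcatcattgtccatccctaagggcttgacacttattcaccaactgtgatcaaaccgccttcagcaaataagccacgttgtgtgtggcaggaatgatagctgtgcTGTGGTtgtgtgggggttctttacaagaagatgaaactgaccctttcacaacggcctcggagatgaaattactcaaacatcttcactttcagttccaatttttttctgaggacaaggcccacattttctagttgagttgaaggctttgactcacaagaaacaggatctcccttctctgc
No 2 marked motifs overlapped. The RUNX core was present in the first listed start region of 8 of 10 members (all but Klra8 and Eomes), against 16.8% of 32851 regions of the same length. The T-box site was in 4 of 10 (Gzmb, Nkg7, Ncr1 and Klre1), against 14.5% of all regions. The interferon regulatory factor element was in 2 of 10 (Gzma and Eomes, against 3.44%) and the ETS element in 1 of 10 (Prf1, which held 2 copies, against 3.33%). These are matches of letters and do not show that a factor binds there.

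Across the libraries the members were highest in WT mice given pristane. There all 10 stood above the PBS library in both replicates, against 37.3% of tested genes, with Klre1 and Klra8 listed at 0 in PBS. The granule genes Gzma and Gzmb and the receptor gene Ncr1 rose past the threshold against PBS, where 5.18% of tested genes rose. In the libraries labelled Irf8KO, 9 of 10 members stood below both WT pristane libraries, against 27.1% of tested genes. No member passed the threshold there, where 0.027% of tested genes fell past it. The size of the gap was uneven: the group mean of Gzmb in Irf8KO-labelled pristane was 0.111 of that in WT pristane, and that of Prf1 was 0.457 of it. Fewer cells of a type and less RNA per cell cannot be told apart in such bulk samples.

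**Figure D1:**
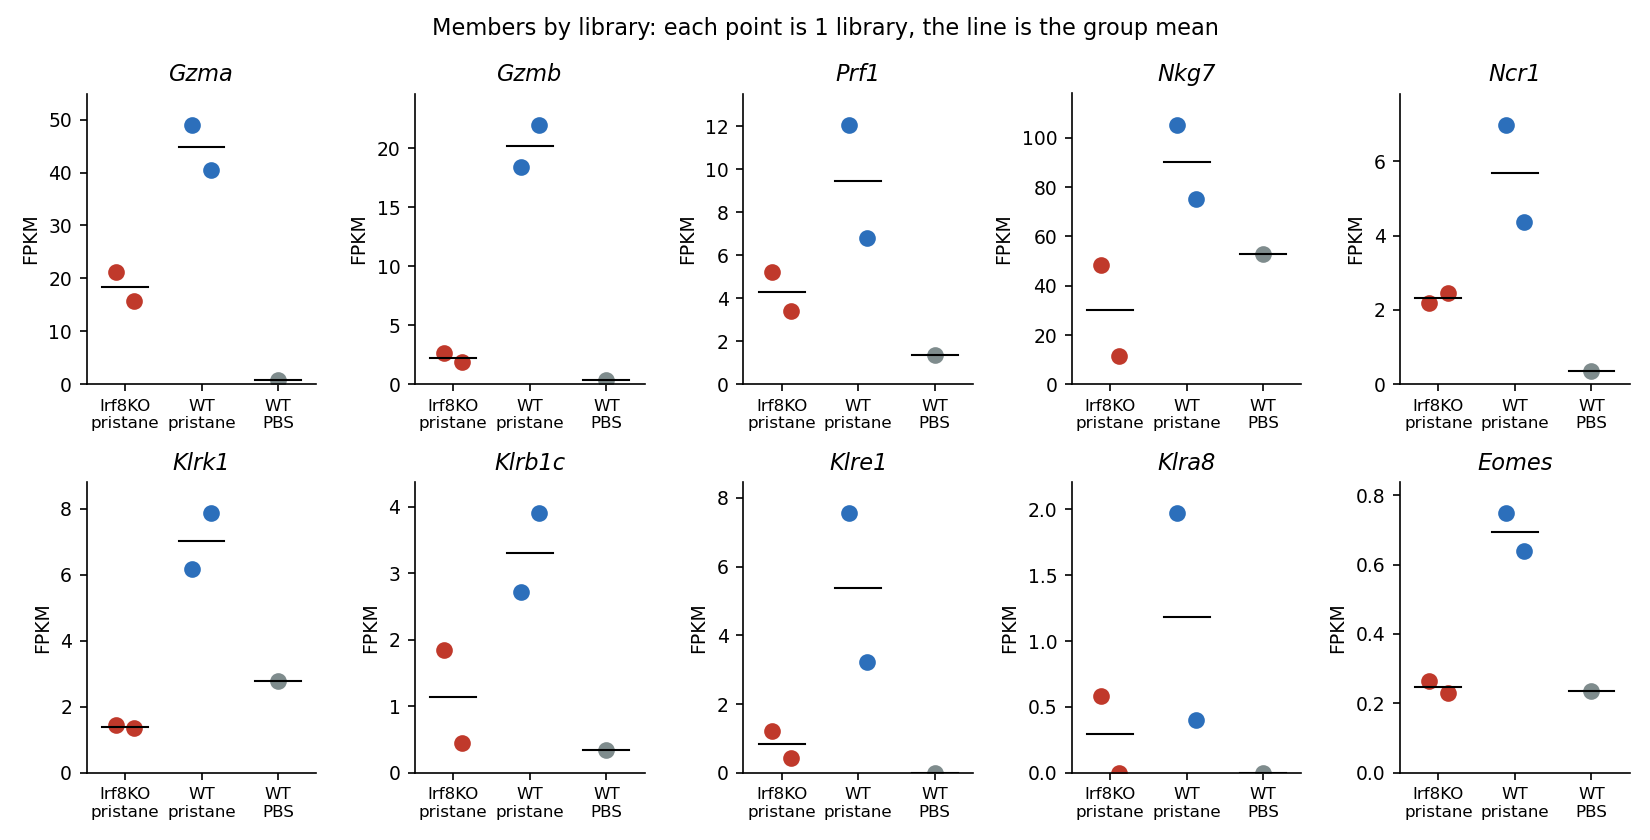
FPKM of each member in each library, with a linear axis per gene; points are libraries and lines are group means, or the single value in WT PBS. All 10 members are highest in a WT pristane library, and Klra8 is the 1 member whose Irf8KO-labelled pristane and WT pristane values overlap.

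Gzma encodes granzyme A, a tryptase-like protease and one of the most abundant proteins of resting mouse natural killer cell granules. Gzma stood at 21.1 and 15.7 FPKM in Irf8KO-labelled pristane, 49.0 and 40.5 FPKM in WT pristane and 0.718 FPKM in WT PBS. The 3 groups did not overlap, and the PBS value corresponds to about 1 to 2 fragments. Gzma rose after pristane in WT (log2 change 4.73 ± 0.28 SE, adjusted p = 0.0236, limma) and in Irf8KO-labelled pristane against PBS (3.48 ± 0.28 SE, adjusted p = 0.0274, limma). Between Irf8KO-labelled and WT pristane the log2 change was −1.24 ± 0.23 (SE), with a 95% interval from −1.89 to −0.60 and an adjusted p of 0.123 (limma).

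Gzmb encodes granzyme B, which cleaves after aspartate, activates caspases, and is made in quantity once natural killer or T cells are stimulated. Gzmb stood at 2.61 and 1.87 FPKM in Irf8KO-labelled pristane, 18.4 and 22.0 FPKM in WT pristane and 0.360 FPKM in WT PBS. These were about 19 and 9 fragments, 108 and 91 fragments, and 1 fragment. Gzmb thus stood well apart in the WT pristane libraries, while the gap between replicates was 0.33 in Irf8KO-labelled pristane and 0.24 in WT pristane on the log2(FPKM + 1) scale. It rose after pristane in WT (log2 change 3.96 ± 0.29 SE, adjusted p = 0.0247, limma). Against WT pristane, Irf8KO-labelled pristane gave the largest difference of any tested member, −2.71 ± 0.24 (SE) on the log2 scale with a 95% interval from −3.37 to −2.05. Its adjusted p was 0.0562 (limma), just outside the threshold, and from 0.00553 to 0.394 over 13 other settings, with the value itself between −3.13 and −2.55. Against PBS, Irf8KO-labelled pristane gave 1.24 ± 0.29 (SE) with an adjusted p of 0.0771 (limma).

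Prf1, the perforin gene, stood at 5.23 and 3.40 FPKM in Irf8KO-labelled pristane, 12.1 and 6.82 FPKM in WT pristane and 1.36 FPKM in WT PBS. The groups did not overlap, but the WT pristane replicates lay 0.74 apart on the log2(FPKM + 1) scale. The log2 changes were −0.95 ± 0.37 (SE, adjusted p = 0.263) for Irf8KO-labelled against WT pristane and 2.10 ± 0.45 (SE, adjusted p = 0.0641) for WT pristane against PBS, both by limma.

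Nkg7 encodes a membrane protein of cytotoxic granules that takes part in their release. Nkg7 stood at 48.4 and 11.5 FPKM in Irf8KO-labelled pristane, 105 and 75.2 FPKM in WT pristane and 53.0 FPKM in WT PBS. It was the one member with a high level in the PBS library, where it made up 89.6% of the summed FPKM of the 10 members. Both WT pristane libraries lay above PBS and both Irf8KO-labelled pristane libraries below it, and the Irf8KO-labelled replicates lay 1.98 apart on the log2(FPKM + 1) scale. The log2 change was −1.86 ± 0.74 (SE, adjusted p = 0.269) for Irf8KO-labelled against WT pristane and 0.74 ± 0.90 (SE, adjusted p = 0.600) for WT pristane against PBS (limma), with 95% intervals from −3.90 to 0.19 and from −1.77 to 3.24. The first difference was −2.85 without Irf8KO-labelled replicate 1 and −0.86 without Irf8KO-labelled replicate 2.

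Among the receptors, Ncr1 encodes NKp46, an activating receptor. Ncr1 stood at 2.19 and 2.47 FPKM in Irf8KO-labelled pristane, 6.99 and 4.38 FPKM in WT pristane and 0.345 FPKM in WT PBS, where the value corresponds to about 1 fragment. The groups did not overlap, and the Irf8KO-labelled replicates lay within 0.12 of each other on the log2(FPKM + 1) scale. Ncr1 rose after pristane in WT (log2 change 2.28 ± 0.34 SE, adjusted p = 0.0392, limma). Between Irf8KO-labelled and WT pristane the difference was −0.98 ± 0.28 (SE, adjusted p = 0.188, limma).

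Klrk1 encodes NKG2D, the activating receptor for stress-induced ligands of the Raet1, H60 and Ulbp1 families. Klrk1 stood at 1.44 and 1.34 FPKM in Irf8KO-labelled pristane, 6.18 and 7.87 FPKM in WT pristane and 2.78 FPKM in WT PBS. The Irf8KO-labelled libraries were the lowest of all, below PBS, and the WT pristane libraries the highest. The log2 change for Irf8KO-labelled against WT pristane was −1.74 ± 0.22 (SE) with a 95% interval from −2.35 to −1.13 and an adjusted p of 0.0812 (limma), and 0.0228 to 0.484 over 12 other settings. For WT pristane against PBS it was 1.08 ± 0.27 (SE, adjusted p = 0.0820) and for Irf8KO-labelled pristane against PBS −0.66 ± 0.27 (SE, adjusted p = 0.178), both by limma.

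Klrb1c encodes NK1.1, the antigen by which natural killer cells of C57BL/6 mice are usually identified. Klrb1c stood at 1.84 and 0.444 FPKM in Irf8KO-labelled pristane, 2.72 and 3.91 FPKM in WT pristane and 0.339 FPKM in WT PBS. Irf8KO-labelled replicate 2 was close to the PBS library and replicate 1 closer to WT pristane, and the difference between the pristane groups was −1.08 ± 0.41 (SE, adjusted p = 0.257, limma). Klre1 encodes a lectin-like receptor that pairs with the products of Klri1 and Klri2. Klre1 stood at 1.22 and 0.434 FPKM in Irf8KO-labelled pristane and at 7.56 and 3.21 FPKM in WT pristane, and was listed at 0 in WT PBS. The pristane groups did not overlap, and their log2 difference was −1.75 ± 0.46 (SE, adjusted p = 0.172, limma).

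Klra8 encodes Ly49H, the activating receptor by which C57BL/6 natural killer cells recognise a mouse cytomegalovirus protein. Klra8 stood at 0.586 FPKM and was listed at 0 in the 2 Irf8KO-labelled pristane libraries, stood at 1.97 and 0.401 FPKM in WT pristane, and was listed at 0 in WT PBS. The pristane groups overlapped (log2 difference −0.70 ± 0.47 SE, adjusted p = 0.469, limma), the gene passed the filter on low values through WT pristane replicate 1 alone, and that library held about 9 fragments of it. A value of 0 in this table can be a failed estimate, so no fold change against PBS is given for Klra8 or Klre1. Klra8, like the other Ly49 genes, has close paralogs with which it may share fragments, and so do Klrb1c and Gzmb.

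Eomes stood at 0.265 and 0.230 FPKM in Irf8KO-labelled pristane, 0.748 and 0.638 FPKM in WT pristane and 0.234 FPKM in WT PBS. Both WT pristane libraries were above the other 3, but every value was under 1 FPKM and rests on an estimated 1 to 11 fragments. Eomes therefore did not enter the test. With no filter on low values its log2 change was −0.44 ± 0.06 (SE, adjusted p = 0.183) for Irf8KO-labelled against WT pristane and 0.46 ± 0.08 (SE, adjusted p = 0.0710) for WT pristane against PBS (limma), on a scale that understates changes at such low levels.

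**Figure D2:**
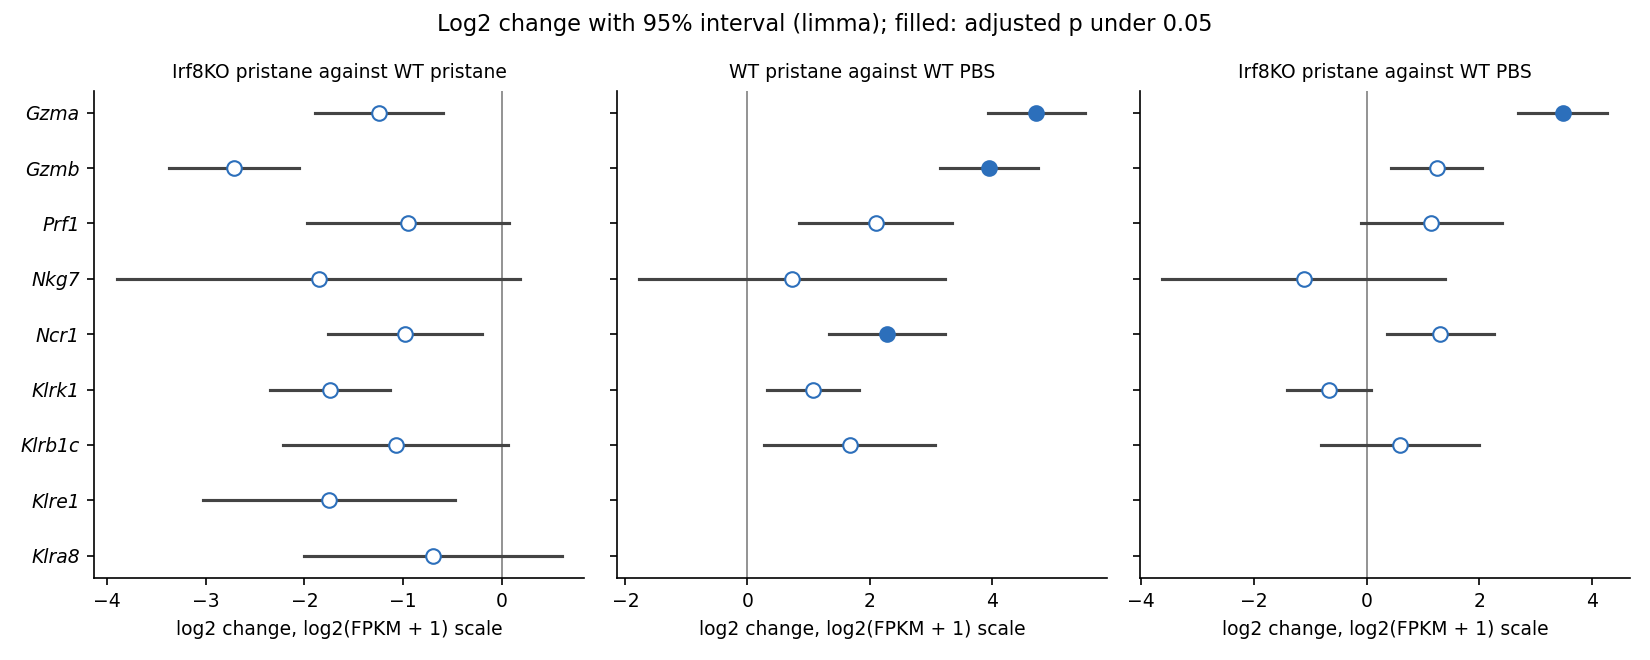
Log2 change on the log2(FPKM + 1) scale (x axis) of the 9 tested members in the 3 comparisons, with 95% limma intervals; filled points have an adjusted p under 0.05. Gzma, Gzmb and Ncr1 are filled for WT pristane against WT PBS and Gzma for Irf8KO-labelled pristane against WT PBS; Klre1 and Klra8 are left blank in the PBS comparisons, where the PBS library is listed at 0.

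WT pristane against WT PBS sets wild-type mice given the oil against those given saline. Of the 9 tested members 3 rose and 0 fell, where 5.18% of the 11117 tested genes rose and 5.46% fell. At an unadjusted p under 0.05, 7 of 9 were higher, against 15.9% of tested genes. Klre1, listed at 0 in WT PBS, is among these 7. All 10 members were above the PBS value in both WT pristane libraries, which held for 37.3% of tested genes, while 0 members and 44.5% of tested genes were below it in both. For Klre1 and Klra8 that PBS value was 0, which can be a failed estimate. Over the 7 tested members with a PBS value above 0 the median log2 change was 2.10, beside −0.07 over all genes. The PBS group is 1 library and was taken to vary as the pristane pairs do. The calls did not hold for these members, or for any other tested gene, with any single pristane library removed. The log2 change then ran from 4.59 to 4.86 for Gzma, from 3.84 to 4.08 for Gzmb and from 2.00 to 2.57 for Ncr1 (limma).

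Irf8KO-labelled pristane against WT pristane sets the 2 genotype labels against each other after the same oil; Irf8 RNA itself was not lower in the libraries labelled Irf8KO. No tested member passed the threshold (limma), where 0.027% of tested genes fell and 0% rose past it. At an unadjusted p under 0.05, 5 of 9 tested members were lower (Gzma, Gzmb, Ncr1, Klrk1 and Klre1) and 0 higher, against 10.1% and 10.5% of tested genes. Both Irf8KO-labelled libraries were below both WT pristane libraries for 9 of 10 members, against 27.1% of tested genes, and above both for 0, against 26.1%. The call for Gzmb and Klrk1 turned on which genes entered the test: in a fit of the 4 pristane libraries alone, with the filter set on these 4, the adjusted p was 0.00553 for Gzmb and 0.0228 for Klrk1 at the same log2 changes. That setting was chosen after seeing the data. With a mean of at least 5 FPKM required, Gzmb had an adjusted p of 0.0135 (limma).

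Irf8KO-labelled pristane against WT PBS split the members. Gzma was the 1 of 9 tested members past the threshold, where 3.81% of tested genes rose and 4.72% fell. At an unadjusted p under 0.05, 3 were higher (Gzma, Gzmb and Ncr1), against 15.6% of tested genes. Both Irf8KO-labelled libraries were above PBS for 6 members (Gzma, Gzmb, Prf1, Ncr1, Klrb1c and Klre1), against 40.7% of tested genes, and below it for 2 (Nkg7 and Klrk1), against 46.0%. Of the 6, Klre1 was listed at 0 in PBS. Klra8 and Eomes had 1 Irf8KO-labelled library at or below PBS. With any single pristane library removed, neither Gzma nor any other tested gene passed, and the log2 change of Gzma was 3.28 to 3.69 (limma). This comparison and the one of WT pristane with PBS share the PBS library.

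The order of the members by level differed between the pristane groups. In WT pristane the granule genes led in the order Nkg7, Gzma, Gzmb in both libraries, and Gzmb was above Prf1 and every receptor. In both Irf8KO-labelled pristane libraries Gzmb lay below Prf1, and in replicate 2 below Ncr1 as well. Gzma was 8.11 and 8.38 times the level of Gzmb in Irf8KO-labelled pristane, 2.66 and 1.84 times in WT pristane and 1.99 times in WT PBS, the last from about 1 to 2 fragments of each. Gzmb was 1.19 and 0.759 times the level of Ncr1 in Irf8KO-labelled pristane, 2.64 and 5.02 times in WT pristane and 1.04 times in WT PBS. Both ratios separated the pristane groups without overlap. The ratio of Gzma to Ncr1, by contrast, was 9.67 and 6.36 in Irf8KO-labelled pristane and 7.02 and 9.25 in WT pristane, and that of Prf1 to Ncr1 was 2.39 and 1.38 against 1.73 and 1.56, so these overlapped. Klrk1 stood at 0.658 and 0.544 times Ncr1 in Irf8KO-labelled pristane, 0.883 and 1.80 times in WT pristane and 8.06 times in WT PBS. Of the 6 ratios computed, those of Gzma to Gzmb, Gzmb to Ncr1 and Klrk1 to Ncr1 gave an exact permutation p of 0.333 between the pristane groups (two-sided, n = 2 each), the smallest that 2 against 2 libraries allow, and the other 3 gave 1.00.

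**Figure D3:**
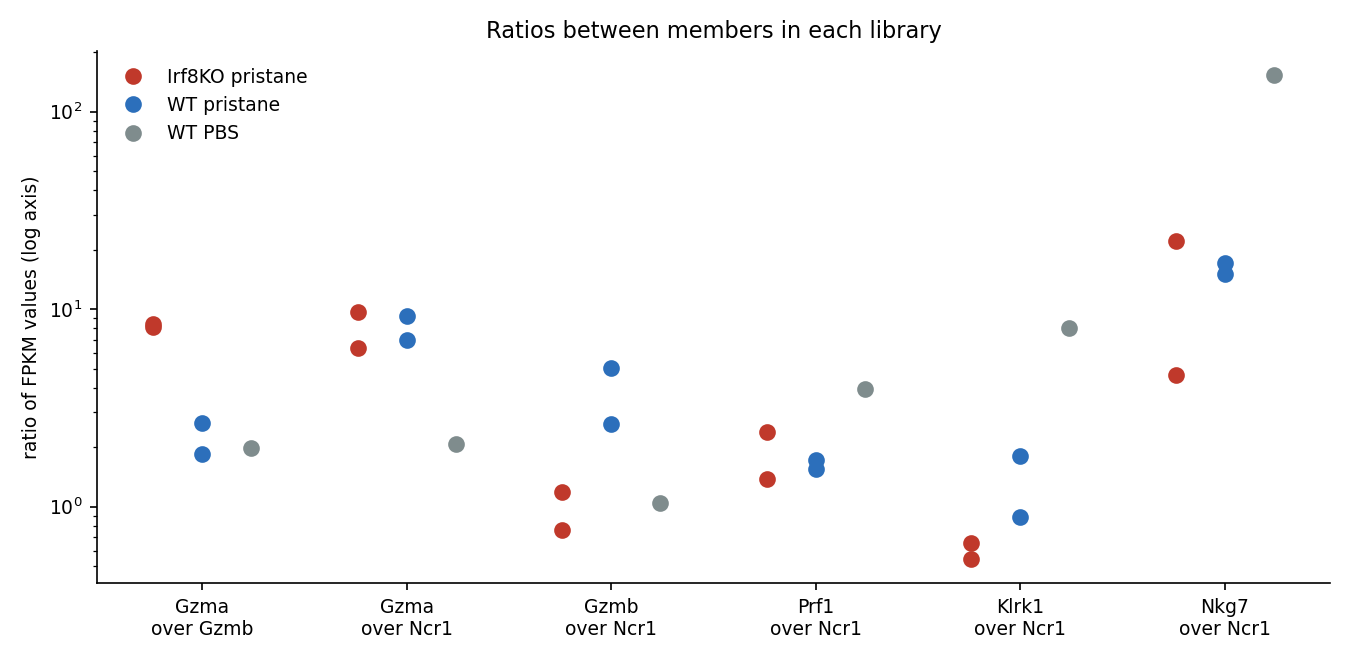
Ratio of 2 members' FPKM in each library, on a log axis, for 6 pairs. Gzma over Gzmb is 8.11 and 8.38 in the Irf8KO-labelled pristane libraries and at most 2.66 elsewhere, while Gzma over Ncr1 overlaps between the pristane groups.

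Of 18 other genes of granules and killing, 13 were tested, and 3 rose and 0 fell in WT pristane against PBS (median log2 change 0.75, beside −0.07 over all genes). They were Ctsw, a cathepsin of cytotoxic lymphocytes (10.03 and 6.75 FPKM in Irf8KO-labelled pristane, 33.8 and 20.3 FPKM in WT pristane, 3.91 FPKM in WT PBS), Ctsc, the protease that activates granzymes (log2 change 1.95 ± 0.27 SE), and Serpinb9, the gene in mice that encodes an inhibitor of granzyme B (2.30 ± 0.32 SE). Gzmd, Gzme, Gzmf and Gzmg, named after their values were seen, were listed at 0 in all 5 libraries. Against WT pristane, 0 of 13 passed in Irf8KO-labelled pristane (median −0.43 over the 12 not listed at 0 in a group), with Ctsw at −1.56 ± 0.35 (SE, adjusted p = 0.146, limma). Srgn, the proteoglycan that packs granules in many blood cells, stood at 3211 and 2958 FPKM, 3415 and 5354 FPKM, and 1028 FPKM in Irf8KO-labelled pristane, WT pristane and WT PBS.

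Of 23 further receptor genes 15 were tested. In WT pristane against PBS 1 passed, Klrb1f, which was listed at 0 in WT PBS and stood at 1.36 and 1.57 FPKM in WT pristane. It reached the filter through the WT pristane libraries alone, with 0.513 and 0.185 FPKM in Irf8KO-labelled pristane. Its 0 in PBS can be a failed estimate, so this call is not read as a rise. In Irf8KO-labelled against WT pristane 0 passed, 12 of the 14 not listed at 0 in a group were lower, and their median was −0.79, beside −0.002 over all genes. Klrd1 encodes CD94, the partner chain of the NKG2 receptors other than NKG2D. It stood at 4.99 and 2.36 FPKM in Irf8KO-labelled pristane, 15.3 and 9.33 FPKM in WT pristane and 8.81 FPKM in WT PBS, the same order of groups as Klrk1. Cd244, an activating receptor that myeloid cells also carry, ran the other way, at 30.4 and 36.5 FPKM in Irf8KO-labelled pristane, 10.6 and 18.7 FPKM in WT pristane and 4.44 FPKM in WT PBS, and rose in Irf8KO-labelled pristane against PBS (log2 change 2.66 ± 0.40 SE, adjusted p = 0.0430, limma).

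The signalling adaptors are shared with myeloid cells. Fcer1g rose in both pristane groups against PBS (2921 and 2383 FPKM in Irf8KO-labelled pristane, 1925 and 1499 FPKM in WT pristane, 362 FPKM in WT PBS), and Tyrobp, the adaptor of Ly49H, rose in Irf8KO-labelled pristane against PBS (log2 change 1.89 ± 0.30 SE, adjusted p = 0.0457, limma). Of the 9 tested adaptor and kinase genes, 1 rose in WT pristane and 2 in Irf8KO-labelled pristane against PBS, 0 fell, and 0 passed between the pristane groups. Of all tested genes, 5.18% and 3.81% rose in these comparisons with PBS. Hcst, the adaptor DAP10 of NKG2D, stood at 109 and 115 FPKM in Irf8KO-labelled pristane, 92.6 and 101 FPKM in WT pristane and 62.7 FPKM in WT PBS, so it did not follow Klrk1.

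Among 10 tested transcription factors of natural killer cells, the same 2 rose (Id2 and Nfil3, both needed for innate lymphocyte development and expressed in myeloid cells too) and the same 2 fell (Ets1 and Ikzf3, also factors of B cells) in each comparison with PBS. Of all tested genes, 5.18% rose and 5.46% fell in WT pristane, and 3.81% rose and 4.72% fell in Irf8KO-labelled pristane. Ets1 stood at 5.80 and 3.61 FPKM in Irf8KO-labelled pristane, 5.84 and 5.36 FPKM in WT pristane and 58.1 FPKM in WT PBS. The 8 B cell markers summed to 185 and 99.2 FPKM, 39.5 and 10.4 FPKM, and 2446 FPKM in these groups, and their part in the fall of Ets1 and Ikzf3 was not tested. Tbx21, the T-box factor related to Eomes and named after its values were seen, was low throughout at 2.46 and 0.802 FPKM in Irf8KO-labelled pristane, 3.74 and 1.11 FPKM in WT pristane and 1.05 FPKM in WT PBS.

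Of 17 cytokine and cytokine receptor genes 0 passed in each of the 3 comparisons (limma). In Irf8KO-labelled against WT pristane 14 were lower (median −0.85, beside −0.002 over all genes). The chemokines Ccl4 and Ccl3, made by natural killer cells and by macrophages, and the interleukin receptor chain Il2rg had the highest levels. Ccl4 stood at 881 and 278 FPKM in Irf8KO-labelled pristane, 1109 and 752 FPKM in WT pristane and 116 FPKM in WT PBS. Of 9 ligand genes of Klrk1 2 reached the filter. Ulbp1 stood at 6.17 and 6.66 FPKM in Irf8KO-labelled pristane, 2.24 and 1.45 FPKM in WT pristane and 4.73 FPKM in WT PBS, with a difference of 1.40 ± 0.24 (SE, adjusted p = 0.112, limma) between the pristane groups. H60b stood at 0.287 and 0.408 FPKM in Irf8KO-labelled pristane, 0 and 0.502 FPKM in WT pristane and 3.16 FPKM in WT PBS. It passed in WT pristane against PBS (log2 change −1.76 ± 0.31 SE, adjusted p = 0.0477, limma). It reached the filter through the PBS library alone, so this call is not read as a fall. Among 9 tested genes of maturation and homing, 1 passed in 1 comparison: Cxcr3, a chemokine receptor of effector T and natural killer cells, fell in Irf8KO-labelled pristane against PBS (log2 change −2.20 ± 0.33 SE, adjusted p = 0.0432, limma).

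**Figure D4:**
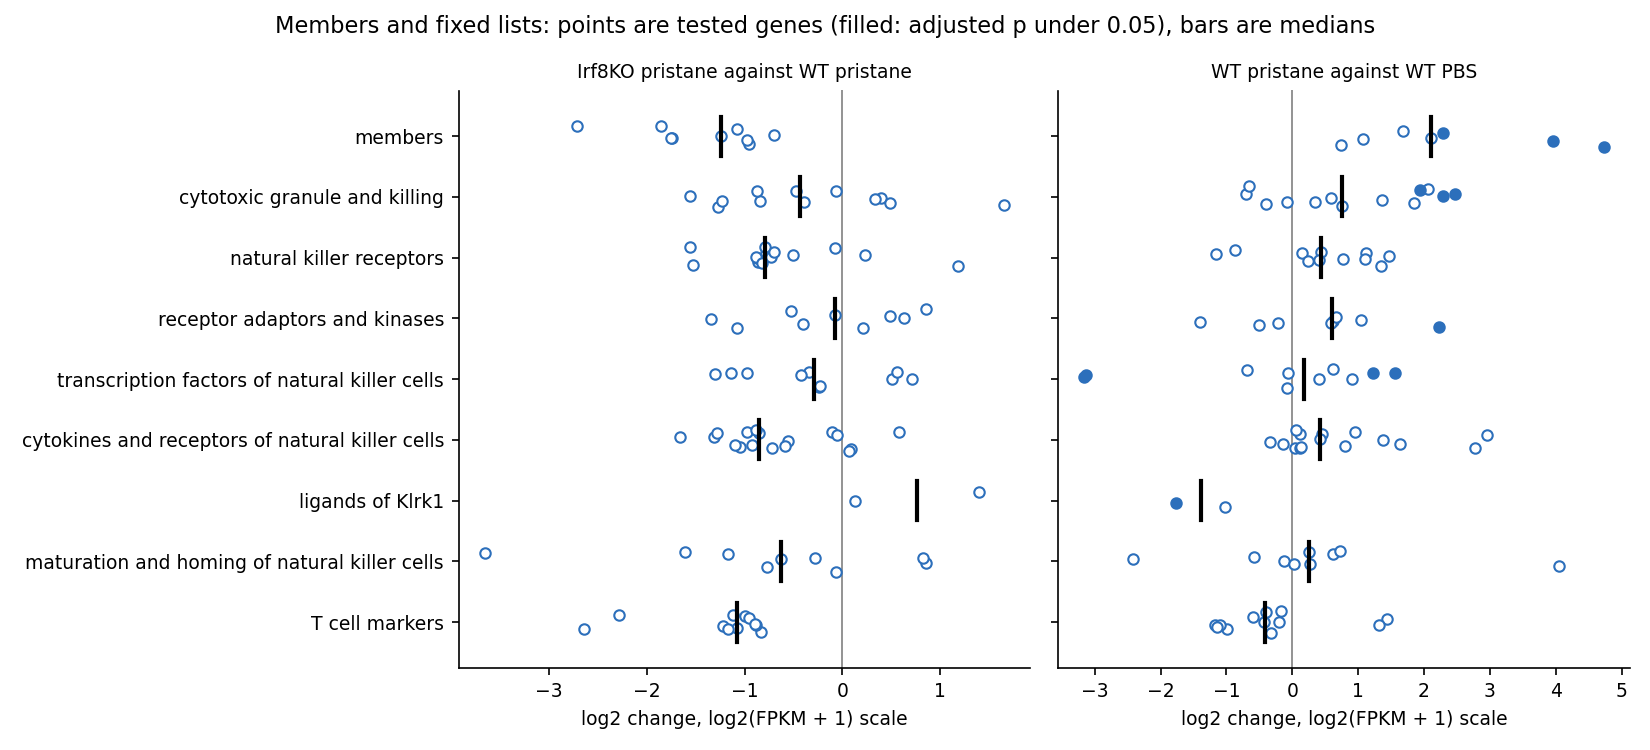
Log2 change on the log2(FPKM + 1) scale (x axis) of the tested members and of the genes of each list (rows), for Irf8KO-labelled against WT pristane and WT pristane against PBS; genes listed at 0 throughout a group are left out, filled points have an adjusted p under 0.05 and bars are medians. The members' bar lies at −1.24 and that of T cell markers at −1.08 for Irf8KO-labelled against WT pristane, and at 2.10 and −0.42 for WT pristane against PBS.

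The 12 T cell markers summed to 48.9 and 41.7 FPKM in Irf8KO-labelled pristane, 147 and 103 FPKM in WT pristane and 157 FPKM in WT PBS. None of the 12 passed between the pristane groups (limma), and all 12 had a lower mean in Irf8KO-labelled pristane. The median log2 change there was −1.08 over the 11 not listed at 0 in a group, beside −0.002 over all genes. Against PBS, 0 of 12 passed in WT pristane. In Irf8KO-labelled pristane 3 of 12 (Trat1, Cd4 and Cd3g) passed as lower, where 4.72% of tested genes fell. Trat1 was listed at 0 in both Irf8KO-labelled libraries, which can be a failed estimate, so its call is not read as a fall. The highest of the 12, Cd3g, stood at 12.1 and 9.14 FPKM, 26.3 and 22.0 FPKM, and 36.8 FPKM in Irf8KO-labelled pristane, WT pristane and WT PBS. The CD8 genes Cd8a and Cd8b1, named here after their values were seen, were highest in WT pristane. Of the 12 T cell markers, they were the only 2 with a positive log2 change in WT pristane against PBS, and the other 10 were negative. Cd8b1 stood at 1.79 and 1.64 FPKM in Irf8KO-labelled pristane, 18.8 and 13.4 FPKM in WT pristane and 5.77 FPKM in WT PBS. Its difference between the pristane groups was −2.64 ± 0.25 (SE, adjusted p = 0.0562, limma). Cd8a stood at 0.509 and 0.184 FPKM, 7.82 and 3.79 FPKM, and 1.39 FPKM in the same groups. The part of T cells in the levels of the granule genes and of Klrk1 was not tested.

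Gzmb can also be made by mast cells and plasmacytoid dendritic cells. Mcpt4, a mast cell chymase, was listed at 0 in all 4 pristane libraries against 70.2 FPKM in WT PBS. Of the 7 tested mast cell markers, Mcpt4, Cma1, Cpa3, Tpsb2 and Fcer1a passed as lower in WT pristane against PBS, where 5.46% of tested genes fell. Mcpt4, Cpa3, Tpsb2 and Fcer1a reached the filter through the PBS library alone. Mcpt4 and Fcer1a were also listed at 0 in both WT pristane libraries, which can be a failed estimate. The calls of these genes other than Cma1 are therefore not read as falls. The 8 mast cell markers summed to 112 and 114 FPKM in Irf8KO-labelled pristane, 190 and 52.4 FPKM in WT pristane and 329 FPKM in WT PBS. In the pristane libraries nearly all of that sum was Hdc, the histidine decarboxylase gene, which other myeloid cells also express: it stood at 108 and 110 FPKM in Irf8KO-labelled pristane, 186 and 50.2 FPKM in WT pristane and 10.9 FPKM in WT PBS. The part of mast cells in the level of Gzmb was not tested. Siglech, a surface lectin of plasmacytoid dendritic cells named here after its values were seen, stood at 0.171 and 0.123 FPKM in Irf8KO-labelled pristane, 4.12 and 1.35 FPKM in WT pristane and 0.378 FPKM in WT PBS. Of the 5 tested markers of these cells 1 rose and 2 fell in WT pristane against PBS, beside 5.18% and 5.46% of tested genes. Bst2, an interferon-induced gene of many cell types, rose (64.8 and 69.4 FPKM in Irf8KO-labelled pristane, 378 and 256 FPKM in WT pristane, 54.3 FPKM in WT PBS), and Ly6d, which B cells also express, fell (46.7 and 13.9 FPKM, 14.1 and 3.49 FPKM, and 569 FPKM in the same groups), as did Tcf4. The sum of the 6 listed markers was 114 and 86.0 FPKM in Irf8KO-labelled pristane, 401 and 265 FPKM in WT pristane and 636 FPKM in WT PBS, most of it Ly6d in PBS and Bst2 in WT pristane. The part of these cells in the level of Gzmb was not tested. The 7 neutrophil markers in the table summed to 45685 and 23447 FPKM in Irf8KO-labelled pristane, 16292 and 14357 FPKM in WT pristane and 159 FPKM in WT PBS. How far this abundance lowers the share left for lymphocyte transcripts was not tested.

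Among 6757 genes with a mean log2(FPKM + 1) of at least 2, predicted genes left out, those whose profile over the 5 libraries was most like the mean of the 9 tested members were Ifitm3, Trex1, Ctsw, Rasgef1b and Atp8b4. Likeness was the root mean square difference between profiles of log2(FPKM + 1), each centred on its own mean, and was 0.132 for Ifitm3, 0.133 for Trex1 and 0.143 for Ctsw. Ctsw is also on the list of granule genes. Ifitm3, an interferon-induced membrane protein gene, stood at 740 and 605 FPKM in Irf8KO-labelled pristane, 1951 and 1462 FPKM in WT pristane and 417 FPKM in WT PBS. The members themselves lay between 0.258 (Prf1) and 1.04 (Gzma) from their own mean, farther than these genes did. The rule picks the nearest genes, so this is a description.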

How the data were processed

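The table holds 1 column of FPKM values per library, deposited by the authors under the name of a count table; per the submitters' processing notes BWA, TopHat2 2.0.10, Cufflinks 2.2.1 and Cuffnorm were used, with no roles stated. The genome build, the annotation and any scaling between libraries are not stated in the labels or headers. Values were not whole numbers, so the design's test for normalized values was used: limma-trend (limma 3.58.1, R 4.3.3) on log2(FPKM + 1). A single fit held the 5 libraries and a mean for each of the 3 groups. Testing was limited to genes that reached 1 FPKM in any library (11117 genes, 9 of the 10 members). Residual degrees of freedom were 2 and prior degrees of freedom 1.99. Benjamini-Hochberg adjustment of the two-sided p-values ran over every tested gene, with 0.05 as the threshold. SE is the moderated standard error. In data simulated with Gaussian noise from the fit's own moderated variances, fits recovered most of the large changes put in. The simulation does not show how often changes of any size would be found in the real data. That includes those of the members between the pristane groups. In that comparison 0.027% of tested genes passed. The large peritoneal macrophage marker Alox15 did not, at a log2 change of 6.38 ± 0.70 (SE, adjusted p = 0.0661, limma).

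Assigned fragments were estimated from genes with 1 transcript of at least 1000 bp in GENCODE M21 and values under 0.3 FPKM, by taking the peak of value times length as 1 fragment; between 63.0% and 81.0% of the products nearest to 1 or 2 fragments lay within 0.15 of the whole number. Fragments per member used the shortest and the longest coding transcript and are rough. Start regions came from RefSeq, and all 10 members matched. Sequence motifs were chosen after the table had been seen. Ratios were compared by exact permutation tests in SciPy 1.17.1.

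The members and lists were chosen with earlier results of these data known. Named genes were the members, up to 4 genes per list and comparison past the threshold with the smallest p, the 3 with the highest mean FPKM per list, and 5 genes most like the mean member profile; others are said to be chosen after their values were seen. Alternatives were another pseudocount (0.1), no filter, a mean of at least 5 FPKM, rescaling each library to the same sum, quantile normalization, no trend, a replicate block, the pristane libraries alone, and leaving out each pristane replicate. Of the table's symbols, 27 had been turned into dates and were not named.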

Additional observations from a re-analysis of the deposited data

Results flagged for a closer look

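Among members and list genes named in the report, 8 had both WT pristane libraries and both Irf8KO-labelled pristane libraries on opposite sides of PBS. This is why they are given again. Ptprc, the white blood cell marker named above and on no list, also lay this way. It stood at 65.3 and 44.1 FPKM in Irf8KO-labelled pristane, 98.9 and 91.1 FPKM in WT pristane and 70.3 FPKM in WT PBS. Of the 122 tested genes of the lists 16 had this pattern, and of all tested genes 9.1%. Both groups were set against the same PBS library, and the fit of Irf8KO-labelled against WT pristane (limma) is the test of the gap. Nkg7 had a log2 change of −1.86 there (adjusted p = 0.269) and Klrk1 of −1.74 (adjusted p = 0.0812). Klrd1, the partner chain CD94, had −1.53 (adjusted p = 0.179). Zeb2, a factor of natural killer cell maturation that macrophages also express, had −0.98 (adjusted p = 0.109), with 19.5 and 18.1 FPKM in Irf8KO-labelled pristane, 35.6 and 40.4 FPKM in WT pristane and 19.8 FPKM in WT PBS. Ulbp1, a ligand of NKG2D, had 1.40 (adjusted p = 0.112), opposite to its receptor gene Klrk1. The T cell genes Cd8a and Cd8b1 had −2.28 (adjusted p = 0.109) and −2.64 (adjusted p = 0.0562), and Siglech had −1.60 (adjusted p = 0.175).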

How the results depend on the processing

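Under the alternatives run, no log2 change turned to the opposite sign for the 9 tested members between the pristane groups, or for the 7 with a PBS value above 0 in the comparisons with PBS. The calls were less stable. In WT pristane against PBS, 1183 genes and 3 members passed, and 0 and 0 with the replicate block and without any 1 pristane replicate. In Irf8KO-labelled pristane against PBS, 949 genes and 1 member passed, 623 genes with no trend, and 0 and 0 with the replicate block and without any 1 pristane replicate. In Irf8KO-labelled against WT pristane, 3 genes and 0 members passed. That became 242 genes and 1 member (Gzmb) with a mean of at least 5 FPKM, 431 genes and 2 members (Gzmb and Klrk1) with the 4 pristane libraries alone and the filter on these 4, 40 genes with no trend, and 0 genes with log2(FPKM + 0.1), with no filter, with rescaling each library to the same sum, with the replicate block and without any 1 pristane replicate. Fits with the block or with a replicate left out have 1 residual degree of freedom fewer; at an unadjusted p under 0.05 those without 1 replicate still gave 2757 to 3749 genes for WT pristane against PBS, 2261 to 3984 for Irf8KO-labelled pristane against PBS and 1022 to 2517 for Irf8KO-labelled against WT pristane. The cause of the other changes in count was not tested. Rescaling to the same sum moved the median of all genes to −0.195 in Irf8KO-labelled against WT pristane and that of the members to −1.52. Replicate numbers were not shown to pair the samples: deviations of same-numbered pristane libraries correlated at 0.045 across 11117 genes, and PBS has no number in the labels. Against PBS in WT, Ncr1 had an adjusted p of 0.0576 with no filter and Prf1 0.0337 with a mean of at least 5 FPKM. Depth limits Klra8, Eomes and the PBS values of Gzma, Gzmb, Ncr1 and Klrb1c, which rest on about 2 fragments or fewer.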
